A study of Mus musculus with 3 samples.

Results

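The 20 Mb of the mouse X chromosome described here, from 125000000 to 145000000 in build mm9, are a stretch of the distal part of the chromosome that holds the highest window of the whole X on day 4 of the experiment. Its members were taken by position: the rows of the X whose midpoint lies inside these limits, the lower one included, and that have a deposited value on both days. There were 641 such windows among 800 rows, 16.1% of the 3987 windows with a value on the X and part of 94429 in the whole genome. Each row is 25 kb long and is taken to mark the middle of a window of 100 kb, so neighbouring windows overlap and a point of the genome enters 4 of them. The first member starts at 124987501 and the last ends at 144037500, which places them 24.3 to 43.4 Mb distal of the highest X window of day 2.

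The study profiled the DNA that comes down with the RNA Xist in female embryonic stem cells labelled as strain 129SvJae. The cells were kept in 2i and LIF, which hold them undifferentiated, and then spent 2 or 4 days in epiblast-like cell (EpiLC) medium. Biotinylated antisense probes captured Xist from a crosslinked lysate, and the recovered DNA was sequenced, a method called RNA antisense purification (RAP-seq). There was 1 Xist library for day 2 and 1 for day 4. The other library, day 2 input DNA, had no value of its own in use here. No day has a replicate, and therefore no p-value could be computed; quartiles describe the spread over overlapping windows of a library. The values are not split between the X homologues, and only DNA was measured, so the labelled cell type could not be set against marker genes.

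Xist is a long noncoding RNA made from the X that will be inactivated. It stays on that chromosome in cis, spreads from its own gene over the chromosome, and brings in proteins such as SPEN and the Polycomb complexes, which silence genes and mark their chromatin. It is known to spread unevenly: early in the process it is recovered with regions that lie near its gene in the folded chromosome, which need not be near it along the sequence, and later with most of the X.

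Xist was recovered above the autosomal median with every measured window of this stretch, at a median level below that of the rest of the X on day 2 and closer to it on day 4. The median enrichment was 8.56 on day 2 (quartiles 5.40 and 16.4, lowest window 2.00, highest 47.43, 641 windows) and 15.58 on day 4 (quartiles 8.12 and 20.6, lowest 2.51, highest 62.9). The 3346 other X windows had medians of 11.37 and 16.64. The ratio of the medians was therefore 0.753 on day 2 and 0.936 on day 4. With both limits of the stretch 1 Mb higher the day 4 ratio was 1.01, and with both 1 Mb lower it was 0.889. Its being below 1 thus depends on where the stretch begins and ends. The stretch is known to hold the highest day 4 row. Without the windows within 1 Mb of that row the ratios were 0.694 on day 2 and 0.806 on day 4. They were 0.673 and 0.882 without windows within 4 rows of a row with no value, here and on the other X. These ratios are taken within a library and need no scaling between the days. The autosomal medians were 0.38 and 0.29, so the stretch stood 22.5 and 53.7 times above the autosomal background of its library. Its lowest window was still 5.26 times that background on day 2 and 8.66 times on day 4. The stretch held 14.7% of the summed enrichment of the X on day 2 and 15.5% on day 4, with 16.1% of its windows.

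**Figure D1:**
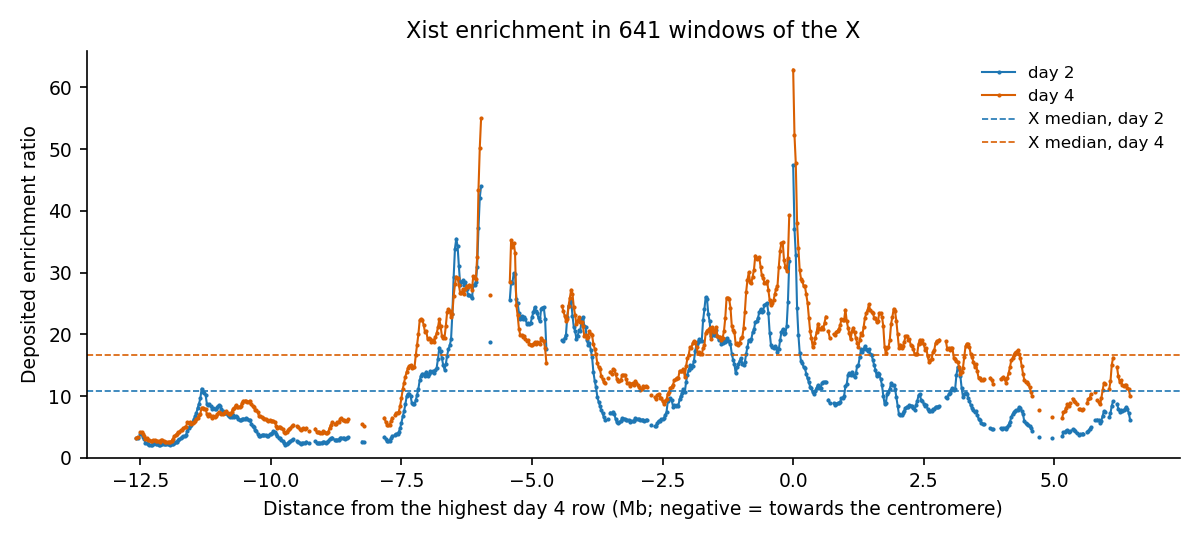
Deposited enrichment ratio (vertical axis) of the 641 windows on day 2 (blue) and day 4 (orange) against distance in Mb from the row with the highest day 4 value (horizontal axis); lines break where rows have no value, and dashed lines are the medians of all X windows, 10.87 on day 2 and 16.58 on day 4. The left part lies below both medians except for the day 2 bump that reaches 11.22, and the 2 tallest spikes reach 62.9 and 54.97 on day 4.

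Recovery was arranged in blocks along the stretch. Over its 20 bins of 1 Mb the median ran from 2.37 to 28.2 on day 2, an 11.9-fold range, and from 3.08 to 28.5 on day 4, a 9.25-fold range. The first 5 Mb, up to 130 Mb, were low on both days, with medians of 3.27 and 5.60 (165 windows). Levels were highest from 130 to 140 Mb. The medians were 16.56 and 19.34 between 130 and 135 Mb (163 windows), and 14.67 and 20.65 between 135 and 140 Mb (195 windows). The last 5 Mb were intermediate, at 7.38 on day 2 and 12.98 on day 4 (118 windows).

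The low start continues the stretch of poor recovery that precedes it on the X. In the 15 Mb before it the medians were 2.27 and 2.36 over 274 windows. The first 1 Mb of the stretch was still at 2.37 on day 2 and 3.08 on day 4. The next bin, 126 to 127 Mb, was higher, with 7.46 and 7.11, and held a bump that reached 11.22 on day 2 at 126237501 to 126262500, where day 4 had 8.14. Beyond it the values fell again, to a median of 2.62 on day 2 and 4.75 on day 4 between 128 and 129 Mb. The bump thus stood between 2 lower parts on both days. On day 4 the values rose further beyond it before they fell. They reached 9.27, the highest of the first 5 Mb on that day, at 127162501 to 127187500, where day 2 had 6.07. The bump holds 1 of the 6 runs of rows whose deposited ratio was lower on day 4.

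The rise out of the low part was spread over many rows. The row at 129987501 had 3.90 on day 2 and 7.24 on day 4, the row at 130137501 had 8.65 and 13.14, and the row at 130437501 had 13.33 and 22.52. A second step led to the highest block of day 2: between the rows at 130987501 and 131087501, 100 kb apart, the value went from 18.21 to 33.91 on day 2, a factor of 1.86. On day 4 the same rows had 23.80 and 28.09, a factor of 1.18. This edge was picked among the steepest 100 kb changes of day 2, which favours a larger factor on that day. The steps picked in the same way on day 4 had their larger factor on day 4. The fall from the row at 132237501 to that at 132337501, for example, was by 1.32 on day 2 and 1.67 on day 4. Whether edges were sharper on either day can therefore not be read from these steps. The block from 131 to 134 Mb had medians of 22.8 and 22.2 over 89 windows and ended in a fall to 6.19 on day 2 and 12.10 on day 4 at 133962501. The bin from 134 to 135 Mb formed a trough between the blocks, at 6.14 on day 2 (quartiles 5.92 and 6.34) and 12.1 on day 4 (11.6 and 12.9).

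The 2 highest X windows of day 4 both lay in this stretch. The highest was the row at 137562501 to 137587500, whose window covers 137525001 to 137625000. It had 47.43 on day 2, rank 5 among X windows, and 62.9 on day 4, rank 1. The second was the row at 131587501 to 131612500, with a window from 131550001 to 131650000. It had 44.03 on day 2, rank 8, and 54.97 on day 4, rank 2. The row next to the first spike ranked lower than this, with 52.31 on day 4. Of the 10 highest X rows, the stretch held 2 on day 2 and 4 on day 4; of the 100 highest, it held 10 and 16. The 16.1% of X windows that lie here are the share to read these counts against. The 4 rows of day 4 among the 10 highest were 2 overlapping rows at each spike, so they stand for 2 places. Since the stretch is known to hold the highest window of day 4, the counts of that day are favoured by its choice.

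**Figure D2:**
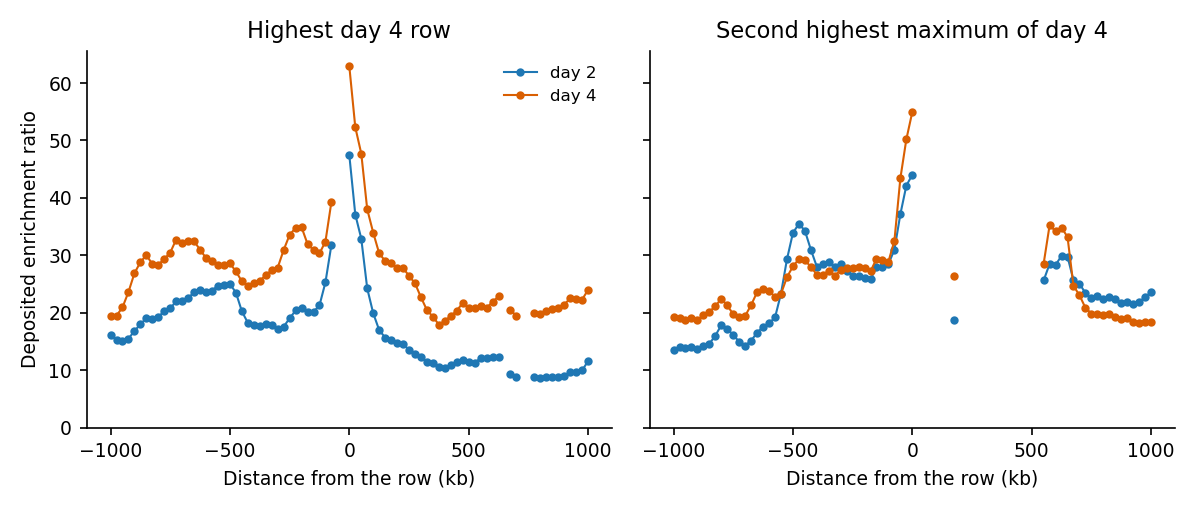
Enrichment ratio (vertical axis) within 1000 kb of the highest day 4 row (left) and of the second highest maximum (right), on day 2 (blue) and day 4 (orange); each point is 1 row, and points are missing where rows have no value. Both spikes end at rows without a value, and day 4 lies above day 2 at both spikes, with 62.9 against 47.43 and 54.97 against 44.03.

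Both spikes stood at the edge of rows without a value. At the first, the 2 rows from 137512501 to 137562500 have none. The row before them had 31.84 on day 2 and 39.31 on day 4, and the rows after the spike went down from 52.31 to 47.73 to 38.03 on day 4, and from 37.12 to 32.93 to 24.26 on day 2. The unbroken run of values above 0.5 of the spike's own height covered 200 kb on day 2 and 225 kb on day 4, 50 kb of which have no value. Outside that run some proximal rows were above this level again, such as those at 500 kb on day 2 (0.528 of the spike) and at 200 kb on day 4 (0.555). At the second, 6 rows from 131612501 to 131762500 have no value, then 1 row had 18.81 on day 2 and 26.41 on day 4, and 14 more rows have none. The run above 0.5 of the second spike's height covered 575 kb on day 2, which takes in the neighbouring day 2 peak, and 175 kb on day 4. Because of the gaps, the true summit of either spike may lie in rows that hold no value here.

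On the distal side of the first spike the days differed more than on the spike itself. In the deposited ratios day 4 was 1.33 times day 2 at the spike, 1.70 times at 100 kb on its distal side and 1.94 times at 250 kb on that side. On the proximal side the fold went both ways from that of the spike, with 1.28 at 100 kb, 1.76 at 250 kb and 1.14 at 500 kb. At 500 kb the distal row had 11.37 on day 2 and 20.85 on day 4, and the proximal one 25.05 and 28.62. The proximal side was the higher one at this distance on both days. On day 4 this did not hold at 100 kb, with 33.97 on the distal and 32.41 on the proximal side, nor at 1000 kb, with 24.01 and 19.40.

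Within 500 kb on the proximal side of the second spike the rows given here had smaller folds than the spike. Day 4 was 1.25 times day 2 at the spike, 1.01 times at 100 kb on the proximal side and 1.05 times at 250 kb. At 500 kb on that side the value was lower on day 4, with 33.91 on day 2 and 28.09 on day 4. The fold was 1.42 at 1000 kb, above that of the spike. The row at 500 kb belongs to a separate peak of day 2 that reached 35.50. The distal side could not be followed, since all but 1 of its rows up to 500 kb have no value. Spikes picked as the highest row of a day favour that day, and these folds have no replicate check.

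The other maxima named here were lower. A maximum is a row that no other row within 500 kb exceeds; there were 12 on each day, of which 6 were in the same row on both days. After the spikes, the highest maximum of day 2 was at 132212501 to 132237500, with 29.93 on day 2 and 34.85 on day 4. That of day 4 was 50 kb away, at 132162501 to 132187500, with 28.52 and 35.25. The row at 133312501 to 133337500 had 25.42 and 27.24 and was among the 5 highest maxima on both days. The remaining ones changed rank between the days: 135887501 to 135912500 had 26.05 on day 2 (rank 273) and 20.22 on day 4 (rank 1367), and 139012501 to 139037500 had 17.55 on day 2 (rank 1018) and 24.87 on day 4 (rank 598).

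High domains, unbroken runs of rows over the 90th percentile of the X, were confined to 131037501 to 137662500 on day 2 and 131087501 to 137812500 on day 4. The thresholds were 23.3 on day 2 and 26.7 on day 4. The threshold itself sets the share of the X that passes: 10% of all X windows on day 2 and 9.98% on day 4. In the stretch 58 windows passed on day 2 (9.05%) and 63 on day 4 (9.83%), close to that background. Without the windows within 1 Mb of the highest day 4 row the share of day 4 was 4.25%. They formed 9 domains on day 2 and 8 on day 4. The 38 windows that passed on both days were 65.5% of those of day 2 and 60.3% of those of day 4. For this overlap no share over all X windows is given.

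The balance of high windows between the 2 blocks differed between the days. On day 2, 41 of 58 were between 131 and 134 Mb and 17 between 135 and 138 Mb. On day 4 the counts were 24 and 39 of 63. The bin from 137 to 138 Mb, which holds the highest day 4 window, had 11 of the 17 on day 2 and 26 of the 39 on day 4. As the stretch is known to hold that window, its choice favours this block on day 4. Neighbouring windows overlap, so these counts are not of separate places. The longest high domain of day 2 was at 131037501 to 131612500 (575 kb, mean 30.4 on day 2 and 30.7 on day 4). The longest of day 4 was at 136662501 to 137112500 (450 kb), with a mean of 29.7 on day 4 and 21.9 on day 2.

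By mean value, the leading domains were those of the 2 spikes. On day 2 the first was 137562501 to 137662500, where the mean was 35.4, against 50.2 on day 4. Then came the 575 kb domain above and 137462501 to 137512500 (28.6, against 35.9 on day 4), on the other side of the 2 rows without a value. On day 4 the leading domain was 137562501 to 137812500, with a mean of 37.9, against 23.9 on day 2. It was followed by 131287501 to 131612500 (33.4, against 30.7 on day 2) and 132137501 to 132262500 (33.2, against 28.4). Around the first spike the high domain therefore extended 150 kb further distally on day 4 than on day 2, each at the threshold of its day.

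Low domains, runs below the 10th percentile of X windows (2.68 on day 2 and 4.23 on day 4), occurred only below 130 Mb. They held 51 windows of the stretch on day 2 (7.96%, against 9.93% of all X windows) and 42 on day 4 (6.55%, against 9.98%). The lowest on day 2 was at 125162501 to 125787500, with a mean of 2.25 on day 2 and 2.88 on day 4. It was followed by 127787501 to 127937500 (2.41 and 4.38) and the single row at 128287501 to 128312500 (2.45 and 4.40). On day 4 the lowest was at 124812501 to 125037500, which begins before the stretch (2.87 on day 4 and 2.82 on day 2). Then came 125062501 to 125837500 (3.10 and 2.45) and 128587501 to 128662500 (4.10 and 2.50). Within the stretch 34 windows were low on both days, 66.7% of those of day 2 and 81.0% of those of day 4. The matching shares over all X windows are not given here, so no contrast with the X is drawn.

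Set against day 2, day 4 showed more recovery over most of the stretch, by an amount that depended on the position. For this comparison the values of each library were expressed relative to its autosomal median, and differences are log2 ratios, day 4 to day 2. The median log2 ratio was 1.01 (quartiles 0.66 and 1.31), a fold of 2.01, against 0.85 (0.49 and 1.22) in the other X windows and 0.085 in autosomal windows. Of the 641 windows, 324 were over 2-fold higher on day 4 (50.5%). The share was 41.3% of all X windows, 39.5% of the other X windows and 3.07% of autosomal windows. Dividing by the autosomal medians adds 0.39 to every log2 ratio and so leaves the order of positions as it is. Relative to the median of the other X windows instead, the median log2 ratio was 0.069. In the deposited ratios it was 0.62, and 112 windows (17.5%) were over 2-fold higher, against 17.0% of all X windows. The excess over all X windows in this count was thus seen with the scaling and hardly without it. The median log2 ratio of the deposited values, 0.62, was above that of all X windows, 0.49. Without scaling the X beyond the stretch had 31.98% of its windows over 2-fold and the X from 60 to 95 Mb 10.76%. With the scaling these parts had 56.1% and 31.0%, so the X beyond the stretch was above it in both counts.

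**Figure D3:**
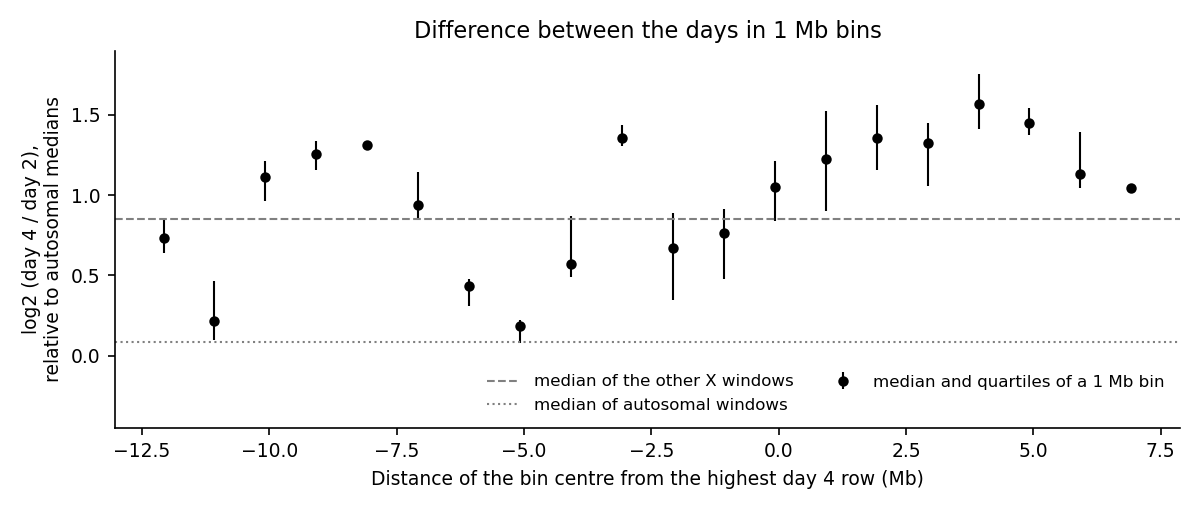
Median log2 ratio of day 4 to day 2, relative to autosomal medians (vertical axis), with quartiles over windows as bars, in the 20 bins of 1 Mb, against the distance of the bin centre from the highest day 4 row (horizontal axis); lines mark the medians of the other X windows, 0.85, and of autosomal windows, 0.085. The lowest bins are at 0.18 and 0.21, and the highest at 1.57.

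All 20 bins of 1 Mb had a median above 0 after scaling, from 0.18 to 1.57, and 12 of them a fold over 2. In the deposited ratios 18 of the 20 had a median fold above 1 and 2 were over 2. The bins with the largest differences were 141 to 142 Mb, 142 to 143 Mb and 134 to 135 Mb. Between 141 and 142 Mb the deposited median went from 6.32 to 13.7 (log2 ratio 1.57, 31 windows). Between 142 and 143 Mb it went from 4.41 to 9.08 (1.45, 19 windows), and in the trough at 134 to 135 Mb from 6.14 to 12.1 (1.36, 34 windows). All windows of these bins were over 2-fold higher relative to the autosomes, a share that picking bins by their median favours. The same held for all windows from 128 to 129 Mb and from 129 to 130 Mb, and for 41.3% of all X windows. None of the windows in the bins with the largest differences was above the 90th percentile of the X on either day.

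The distal side of the first spike was the longest part with a large difference. From 138 Mb to the last member there were 195 windows, whose deposited median went from 8.31 on day 2 (quartiles 6.26 and 11.0) to 16.99 on day 4 (12.6 and 19.8). All 195 were higher on day 4 even without scaling, and 162 (83.1%) were over 2-fold higher relative to the autosomes. These shares were 82.7% and 41.3% over all X windows, and 89.6% and 56.1% on the X beyond the stretch. The day 2 median of this part was below that of the X, 10.87, and its day 4 median was slightly above the X median of 16.58. The windows with the largest log2 ratios were here, at 141587501 to 141612500 (4.78 on day 2, 13.13 on day 4, log2 ratio 1.85), 141562501 to 141587500 (4.70 and 12.90, 1.85) and 141337501 to 141362500 (4.78 and 12.95, 1.83). They lie 1 to 3 rows from a row without a value. The longest run of rows over 2-fold higher in the deposited ratios was at 139487501 to 139912500, with means of 8.40 on day 2 and 19.4 on day 4.

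The smallest differences were found in the block that was highest on day 2 and in the bump inside the low part. Day 2 is also the denominator of these ratios, from a single library, and its part in this pattern was not tested. The bin from 132 to 133 Mb had a deposited median of 23.4 on day 2 and 19.1 on day 4 (log2 ratio 0.18 after scaling, 29 windows). The bump at 126 to 127 Mb came next (0.21, 40 windows), and the bin from 131 to 132 Mb followed, with 28.2 and 27.9 (0.43, 26 windows). In the deposited ratios 78 of the 641 windows were lower on day 4 (12.2%), against 17.1% of all X windows; after scaling 5 were, against 2.08% of all X windows. The 78 formed 6 runs, of which the longest were at 126062501 to 126687500 (25 rows, mean 8.37 on day 2 and 6.94 on day 4), 132262501 to 132862500 (24 rows, 22.9 and 19.3) and 135712501 to 136012500 (12 rows, 21.4 and 18.6). The 3 windows with the smallest log2 ratios were all in the bump, at 126237501 to 126262500 (-0.073), 126212501 to 126237500 (-0.038) and 126287501 to 126312500 (-0.036).

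The order of the windows was nevertheless much the same on both days. Day 2 and day 4 had a Spearman's rho of 0.90 over 163 windows without overlap, and of 0.88 over 835 such windows of the other X. Within the stretch it was 0.88 below 130 Mb (42 windows) and 0.84 from 130 Mb on (121 windows). These values describe windows of a single library per day that may share an input, and they have no test. The spread narrowed: the upper quartile was 3.04 times the lower on day 2 and 2.54 times on day 4, with 3.32 and 2.46 in the other X windows and 3 and 2.15 on the autosomes.

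**Figure D4:**
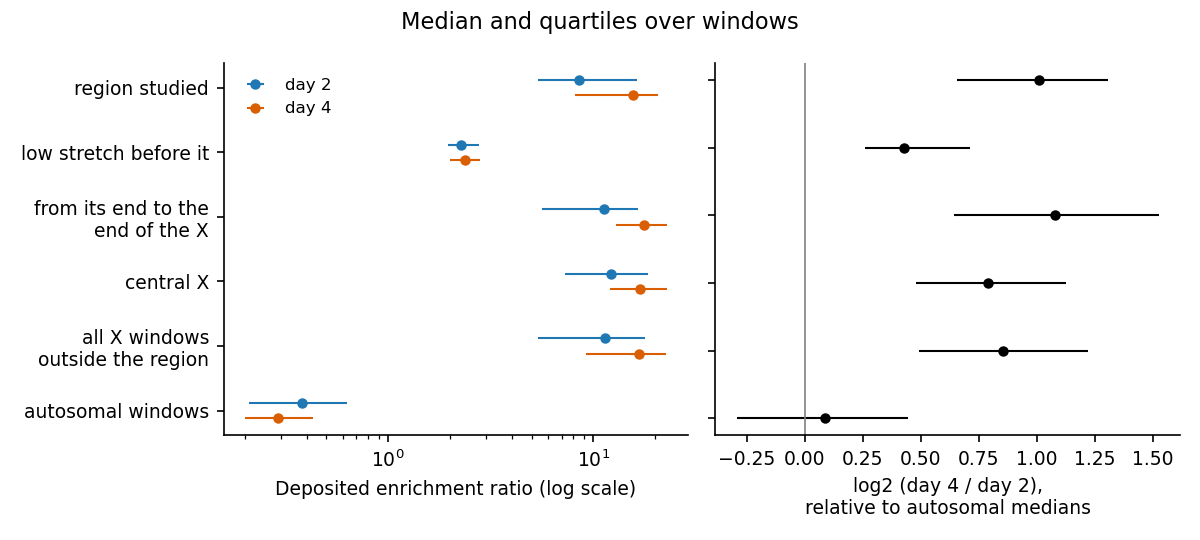
Median (point) and quartiles (bars) over windows for the stretch, the low stretch before it, the X beyond the stretch, the X from 60 to 95 Mb (central X), all X windows outside the stretch and autosomal windows. The left panel gives the deposited enrichment ratio on a log scale, and the right panel the log2 ratio of day 4 to day 2 relative to autosomal medians, where the stretch is at 1.01 and the low stretch before it at 0.43.

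For comparison, the X beyond the stretch (713 windows) had medians of 11.23 and 17.67 and a median log2 ratio of 1.08, and the X from 60 to 95 Mb (697 windows) had 12.24 and 16.8 and a log2 ratio of 0.79. The highest windows there were 33.1 and 42.67 on day 2 and 31.41 and 35.88 on day 4, below both spikes of the stretch on each day. For day 4 this is no separate result, since the stretch is known to hold the highest window of that day. Over all other X windows the highest were 82.67 on day 2, above both spikes, and 51.42 on day 4. The quartiles of day 4 were 2.54-fold apart in the stretch, 1.78-fold beyond it, 1.89-fold between 60 and 95 Mb and 2.46-fold in all other X windows. Those of day 2 were 3.04-fold, 2.95-fold, 2.53-fold and 3.32-fold apart. With 1 library on each day these differences could not be tested, and the log2 ratios of the 3 parts overlap in their quartiles.

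Rows without a value were a smaller share here than on the X as a whole, but not smaller than on the X beyond the stretch. The share with a value was 59.8% on the whole X, 82.0% beyond the stretch and 49.8% from 60 to 95 Mb. In the stretch the rows without a value were 159 of 800, which leaves 80.1% with one. They formed 32 gaps with a median of 2 rows. The longest starts at 144037501 and runs to 146787500 (110 rows, 38 of them in the stretch), so the last 1 Mb rests on 2 windows. The last row before it had 6.18 on day 2 and 10.01 on day 4, and the first after it, beyond the stretch, 6.35 and 11.05. Over the whole stretch, rows near a gap had lower medians than rows farther away, although both spikes stand at gaps. The 56 members next to a row without a value had medians of 4.87 and 10.11, the 109 members 2 to 4 rows away 5.64 and 11.48, and the 476 farther away 10.31 and 17.79. Their median log2 ratios were 1.30, 1.24 and 0.90. Between 131 and 138 Mb, where both spikes lie, the medians of these 3 groups showed no such order on day 2, with 17.62, 20.06 and 18.88, and were 15.43, 20.63 and 20.04 on day 4 (13, 30 and 198 windows). The median log2 ratios between 131 and 138 Mb were 0.88, 0.91 and 0.67, again lowest in the group farthest from a gap. In the other X windows these 3 groups had day 2 medians of 4.25, 6.45 and 15.32 and log2 ratios of 1.02, 0.94 and 0.75. The part of the missing rows in the differences between positions was not tested.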

How the data were processed

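The authors deposited 1 enrichment ratio per row and library, given to 2 decimals. The submitters' processing notes name build mm9, Bowtie2 2.2.9, SAMtools 1.2, bedtools, Picard and Trim Galore 0.4.1. Settings, the input behind the day 4 ratio and library scaling were not given in the sources used here. Read depth is unknown, so no counting interval is given. A deposited flag of 1 marks rows whose ratio is 0 on both days; these were treated as having no value. Positions count from 1.

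Quantiles, runs and maxima were computed with Python 3.11.15, numpy 2.4.6, pandas 2.3.3 and scipy 1.17.1, and the functions were tested on simulated data. No pseudocount was used. The members were chosen with earlier results of these data known. Regions were named by rule: up to 5 maxima and 3 high and 3 low domains per day, the 3 largest and 3 smallest log2 ratios among windows and among 1 Mb bins, and rows beside gaps of 40 or more rows. The steps, runs and joined blocks were chosen after the values were seen. The gene and promoter tables supplied are of another build, so no gene was assigned to a window. Alternatives covered window overlap, boundaries, scaling, thresholds and rows near gaps.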

Additional observations from a re-analysis of the deposited data

How the results depend on the processing

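Of 95 alternative values for 15 results, 73 were counted as unchanged. For medians and shares this means inside the 95% binomial interval of the main value over windows that do not overlap. For rho it means within 0.05, and counts of domains have no interval. The intervals treat neighbouring windows of 1 library as independent and do not measure the spread between libraries. Those of the ratios hold the median of the other X windows fixed. Taking 1 row in 4 or moving both boundaries by 1 Mb was among the unchanged values. With the boundaries 1 Mb higher, however, the ratio to the other X windows on day 4, 0.936 (interval 0.768 to 1.07), went above 1, to 1.01. Leaving out the windows within 1 Mb of the highest day 4 row took the share above the 90th percentile on day 4 to 4.25%. Without windows within 4 rows of a row with no value, the medians were 10.31 and 17.79, the median log2 ratio 0.90 and the share over 2-fold 40.5%. Without scaling the log2 ratio was 0.62 and that share 17.5%; scaled to the other X windows, which removes the change common to the X, they were 0.069 and 0%. The share was 79.3% at 1.5-fold and 5.15% at 3-fold. The share above the 80th percentile on day 2 was 17.8%, and above the 95th 3.90% and 4.84% on days 2 and 4. Counting rows without a value as 0, added after seeing the data, gave medians of 7.04 and 12.1. The first spike spanned 50 kb and 75 kb at 0.75 of its height and 2375 kb and 4625 kb at 0.25. Low domains at the 20th percentile numbered 18 and 14. The thresholds change these values by construction. No paired analysis was possible because a day is a single library, which is also why no library was left out in turn.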
